A study of Mus musculus with 8 samples.

Results

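Transcript levels in inguinal white adipose tissue (iWAT) were compared between mice that lacked Ythdf1 in adipocytes and their controls, across every gene with a mean of at least 0.5 RPKM over 4 RNA-seq libraries. RPKM is a read count divided by transcript length in kilobases and scaled to the depth of the library. The rule kept 12435 of the 16674 genes listed, in 4 of the 8 libraries of the series, the other 4 being Ribo-seq libraries. The control group, Y1CTL, was male Ythdf1 flox/flox mice, whose Ythdf1 has loxP sites around the fourth exon. The knockout group, Y1cKO, carried the same floxed alleles and Adipoq-Cre, a recombinase driven by an adipocyte promoter. Both groups were C57BL/6, 9 weeks old and kept at 4 °C for 7 days, and each had 2 RNA-seq libraries of polyadenylated RNA. The comparison asks which transcripts differ in abundance in cold-exposed iWAT without adipocyte YTHDF1, beside the question of translation that the Ribo-seq of the same study addresses. The libraries were made from whole iWAT, in which adipocytes lie beside fibroblasts, endothelial cells, nerve, blood cells and often an inguinal lymph node, so that fewer cells of a type and less RNA per cell cannot be told apart. The sources do not say that the replicates of a group were different mice, and the p-values therefore reflect library-to-library spread that could be technical.

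YTHDF1 is a cytoplasmic protein that binds N6-methyladenosine (m6A) in mRNA and is known chiefly as a promoter of translation, while its relative YTHDF2 is known for mRNA decay. iWAT stores triglyceride at room temperature. In the cold, noradrenaline acts on β-adrenergic receptors of its adipocytes, raises cAMP and induces beige adipocytes, which burn fatty acids in mitochondria uncoupled by UCP1.

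Ythdf1 (ENSMUSG00000038848) had 8.01 and 11.5 RPKM in Y1CTL and 7.17 and 7.98 RPKM in Y1cKO, from 72, 130, 199 and 298 reads. Both Y1cKO values lay below both Y1CTL values, by a log2 difference of -0.33 with a standard error of 0.24, which did not pass the test (adjusted p = 0.587 from limma). The value covers the whole transcript and not the floxed exon alone, and Cre acts only in adipocytes, so that it is a weak check of the labels. The paralogs stood close to equal. Ythdf2 had 8.99 and 8.73 RPKM in Y1CTL and 8.73 and 8.46 RPKM in Y1cKO, and Ythdf3 had 16.1 and 17.8 RPKM against 16.5 and 14.3 RPKM.

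Depth moved with genotype. The Y1CTL libraries held 3958284 and 4963613 reads and the Y1cKO libraries 12211351 and 16429015, so that 3 reads, the most that a count of 0 allows, stood for 0.758, 0.604, 0.246 and 0.183 RPKM in a transcript of 1 kilobase. This limit covers counting error only. In each group 1 library also held transcripts of another tissue. Over 21 T cell genes the median was 9.75 RPKM in Y1CTL replicate 2 and 0.162, 0.219 and 0.151 RPKM in Y1CTL replicate 1 and Y1cKO replicates 1 and 2. The summed level of these genes was 12.2 and 266 RPKM in Y1CTL and 19.0 and 8.23 RPKM in Y1cKO. For 19 B cell genes the sums were 46.8 and 360 RPKM in Y1CTL and 47.8 and 49.2 RPKM in Y1cKO, and Ebf1, which adipocytes also express, made up 39.0 to 44.2 RPKM of each. Ccl21a, the chemokine that draws lymphocytes into lymph nodes, had 0 and 86.1 RPKM in Y1CTL and 0.282 and 0.210 RPKM in Y1cKO, and Cd79a, part of the B cell receptor, had 0, 63.9, 0.506 and 0.418 RPKM. Glycam1, a product of lymph node vessels, was read in Y1CTL replicate 2 alone, at 44.9 RPKM.

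Skeletal muscle transcripts stood out in Y1cKO replicate 1. Over 32 muscle genes the median was 5.04 RPKM there, beside 0, 0.0359 and 0.0436 RPKM in Y1CTL replicates 1 and 2 and Y1cKO replicate 2. The sums were 42.1 and 31.5 RPKM in Y1CTL and 404 and 56.5 RPKM in Y1cKO. These 32 genes took 0.00596% and 0.0124% of the reads in Y1CTL and 0.177% and 0.00785% in Y1cKO. The fast myosin Myh4 had 0, 0, 41.0 and 0.0101 RPKM, and muscle creatine kinase Ckm had 18.5 RPKM in Y1cKO replicate 1 and no read elsewhere. The labels state that each lysate was divided between RNA-seq and Ribo-seq, and the Ribo-seq libraries of the same names did not show this pattern. All 4 held lymphoid transcripts, with medians of 17.4 to 27.0 RPKM over the T cell genes, and none held muscle at the level of Y1cKO RNA-seq replicate 1, with medians of 0.106 to 0.233 RPKM over the muscle genes. Whether an RNA-seq and a Ribo-seq library of the same name came from the same tissue was not tested, and it bears on every Ribo-seq value set beside an RNA-seq value here. Ccl21a had 215 to 342 RPKM in Ribo-seq, and Myh4 at most 0.209 RPKM.

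**Figure D1:**
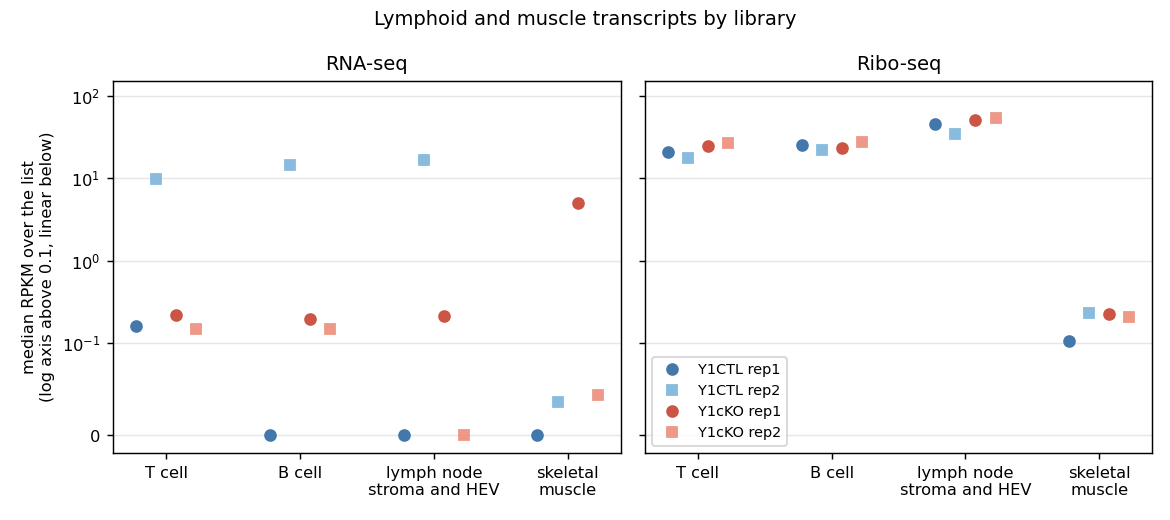
Median RPKM (vertical axis, logarithmic above 0.1 and linear below) over the T cell, B cell, lymph node and skeletal muscle lists, 1 point per library, for RNA-seq (left) and Ribo-seq (right), where HEV stands for high endothelial venule. In RNA-seq only Y1CTL replicate 2 lies near 10 RPKM for the lymphoid lists and only Y1cKO replicate 1 reaches 5.04 RPKM for muscle, while all 4 Ribo-seq libraries hold the lymphoid lists and none the muscle list.

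No gene passed an adjusted p of 0.05 among the 12435 tested (0 of 12435, or 0%, smallest adjusted p = 0.401 from limma with Benjamini-Hochberg adjustment), nor did limma-voom on the reads call any (0, with 1332 at an unadjusted p under 0.05). With 2 libraries against 2, an exact two-sided permutation test of a single gene cannot give a p below 0.333. At an unadjusted p under 0.05 limma gave 1468, of which 1246 (10%) were higher in Y1cKO and 222 (1.79%) lower. With a log2 difference beyond 1 as well, 310 genes (2.49%) were higher and 107 (0.860%) lower. Both Y1cKO libraries lay above both Y1CTL libraries in 4584 genes (36.9%) and below both in 1332 (10.7%). Without Y1CTL replicate 2, the library with lymphoid transcripts, the adjusted test called 52 genes, and without Y1CTL replicate 1 it called 665, with the lone control then assumed to vary like the knockouts.

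The whole table was shifted. The median log2 difference over all genes was 0.17, with 67.2% of genes above 0, and it was 0.13 to 0.21 in each of the 4 pairs of 1 Y1cKO with 1 Y1CTL library. A few genes took unequal shares of the reads. Lars2 alone, which encodes the mitochondrial leucyl-tRNA synthetase, took 8.88% and 13.3% of the reads in Y1CTL and 3.57% and 3.94% in Y1cKO, and 10 genes of the mitochondrial genome took 15.6%, 16.9%, 11.1% and 15.5%. With Lars2 and those 10 genes left out of the total by which each library was scaled, an alternative chosen after the data were seen, the median difference of all genes was -0.00355, and 186 genes were higher and 168 lower past the same fold and unadjusted p. With the muscle and lymphoid lists left out of the total instead, the counts stayed at 310 higher and 107 lower and the median at 0.17. With the libraries scaled to the same median the split was 178 higher and 162 lower, and both Y1cKO libraries lay above both Y1CTL libraries in 21.8% of genes and below both in 19.9%. List medians are therefore given beside the 0.17 of all genes. All differences are on the log2(RPKM + 0.5) scale, which understates those of low genes.

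**Figure D2:**
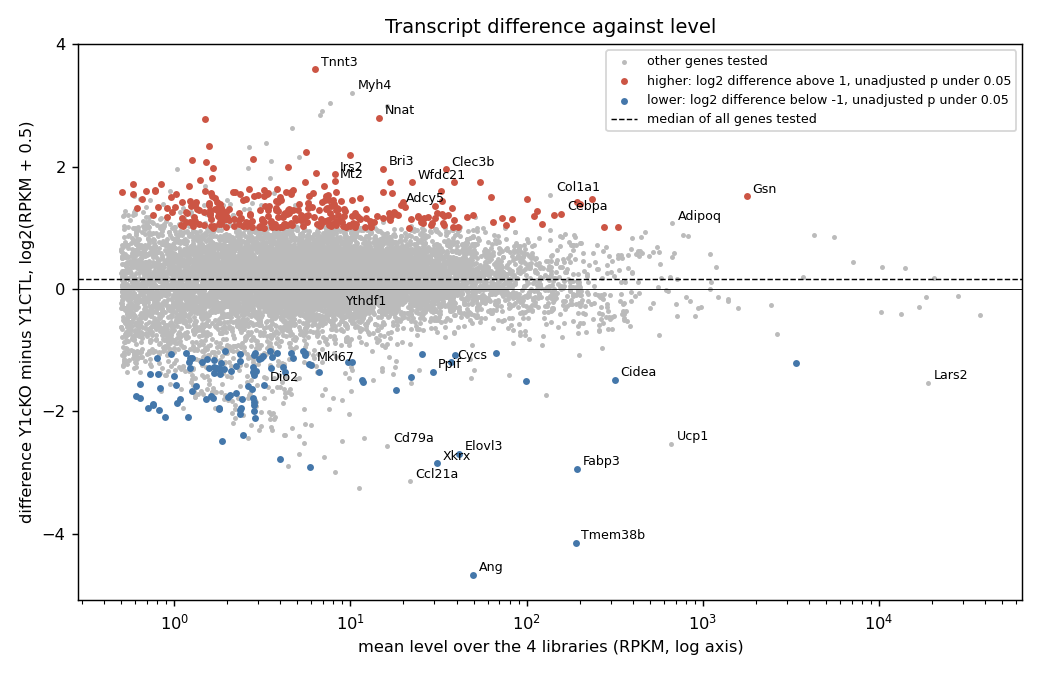
Difference between Y1cKO and Y1CTL on the log2(RPKM + 0.5) scale (vertical axis) against the mean RPKM over the 4 libraries (horizontal, logarithmic), 1 point per gene. Coloured points pass a log2 difference beyond 1 and an unadjusted p under 0.05, with 310 above and 107 below, the dashed line is the median of 0.17, and Ang, Tmem38b, Fabp3 and Xkrx lie lowest among the coloured genes with high levels.

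Thermogenic transcripts were lower in Y1cKO replicate 1 than in the controls, with 22 and 24 of 28 genes below Y1CTL replicates 1 and 2. Y1cKO replicate 2 was below Y1CTL replicate 1 in 13 of the 28 and below Y1CTL replicate 2 in 22, and no member passed the adjusted test. Of the 30 beige and brown adipocyte genes listed, 28 were tested and 24 lay below 0, with a median of -0.83 beside 0.17 for all genes. Both Y1cKO libraries were below both Y1CTL libraries in 11 of the 28 (39.3%, beside 10.7% of all genes) and above them in 2 (7.14%, beside 36.9%). At an unadjusted p under 0.05, 7 were lower and 1 higher, beside 1.79% and 10% of all genes. Ucp1, the uncoupling protein of beige and brown mitochondria, had 609 and 1441 RPKM in Y1CTL and 48.1 and 544 RPKM in Y1cKO, a log2 difference of -2.53 with a standard error of 1.11 (adjusted p = 0.448 from limma). Y1cKO replicate 1 was far below the other libraries, and Y1cKO replicate 2 lay just under Y1CTL replicate 1.

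Other thermogenic genes were also lowest in Y1cKO replicate 1. Cidea, a lipid droplet protein of brown fat, had 415, 481, 88.6 and 285 RPKM in Y1CTL replicates 1 and 2 and Y1cKO replicates 1 and 2. In the same order Elovl3, an elongase of very long fatty acids, had 61.9, 70.2, 2.79 and 31.4 RPKM, and Fabp3, a fatty acid carrier, had 347, 276, 11 and 140 RPKM. The groups did not overlap for these 3 genes, with log2 differences of -1.49, -2.70 and -2.94 and adjusted p-values of 0.408, 0.409 and 0.409 from limma. Letmd1, a mitochondrial protein needed for brown fat thermogenesis, had 87.5, 203, 29.0 and 74.5 RPKM, glycerol kinase Gk had 21.2, 12.8, 3.25 and 9.32 RPKM, and Plin5, which ties lipid droplets to mitochondria, had 24.8, 31.7, 11.4 and 19.1 RPKM. Y1cKO replicate 1 was the lowest library in each of these 6 genes. It is also the library with muscle transcripts. Muscle uses Fabp3 and Plin5 as well, and its part in their values was not tested.

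Dio2, the deiodinase that makes active thyroid hormone inside thermogenic adipocytes, was low in both Y1cKO libraries. It had 6.30 and 3.95 RPKM in Y1CTL and 1.51 and 1.21 RPKM in Y1cKO, a log2 difference of -1.57 with a standard error of 0.32 (adjusted p = 0.401 from limma). In Ribo-seq it had 7.50 and 1.87 RPKM against 1.98 and 1.39 RPKM. The transcriptional regulators of the programme stood near the shift of all genes instead. Ppargc1a had 3.75, 4.64, 4.16 and 5.17 RPKM, Prdm16 3.41, 4.47, 4.08 and 4.35 RPKM, and Esrra 16.3, 21.7, 20.6 and 22.3 RPKM, with overlapping groups. The median of the beige list changed sign with the libraries compared. It was -0.86 and -1.58 for Y1cKO replicate 1 against Y1CTL replicates 1 and 2, and 0.17 and -0.52 for Y1cKO replicate 2. The pair at 0.17, with 15 genes above 0 and 13 below, is the one that holds neither the library with lymphoid nor that with muscle transcripts. In Ribo-seq the median of the same genes was 0.22, and Ucp1 had 3586 and 955 RPKM in Y1CTL and 3164 and 2481 RPKM in Y1cKO.

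**Figure D3:**
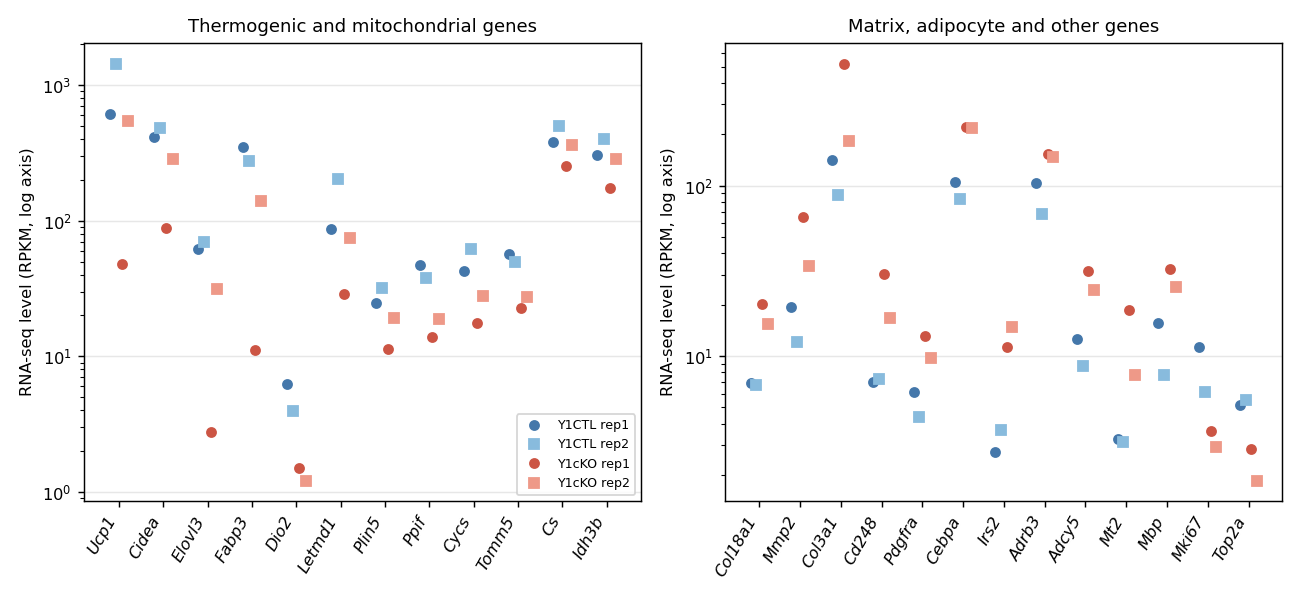
RNA-seq RPKM (vertical axis, logarithmic) in each of the 4 libraries for thermogenic and mitochondrial genes (left) and for matrix, adipocyte and other genes (right), blue for Y1CTL, red for Y1cKO, circles for replicate 1 and squares for replicate 2. On the left Y1cKO replicate 1 is lowest for all genes but Dio2, where both Y1cKO libraries lie at 1.51 and 1.21 RPKM.

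Mitochondrial catabolism followed the beige genes with smaller differences. Of 29 genes of the citrate cycle and pyruvate dehydrogenase, 24 lay below 0, with a median of -0.41. Both Y1cKO libraries were below both Y1CTL libraries in 14 (48.3%, beside 10.7% of all genes) and above them in 1 (3.45%, beside 36.9%). Citrate synthase Cs had 379 and 497 RPKM in Y1CTL and 254 and 363 RPKM in Y1cKO, and Idh3b, a subunit of isocitrate dehydrogenase, had 303 and 399 against 174 and 283 RPKM. Of 76 nuclear genes of the respiratory chain, 56 lay below 0 with a median of -0.21. Both Y1cKO libraries were below both Y1CTL libraries in 22 (28.9%, beside 10.7% of all genes) and above them in 5 (6.58%, beside 36.9%). Fatty acid oxidation (28 genes) had a median of -0.22 and the mitochondrial genome (10 genes) one of -0.28. In the pair of Y1cKO replicate 2 and Y1CTL replicate 1 these medians were -0.03, 0.14, 0.08 and 0.11, against -0.67, -0.55, -0.44 and -0.66 in the pair of Y1cKO replicate 1 and Y1CTL replicate 2. For the citrate cycle genes and the nuclear respiratory genes the Ribo-seq medians were 0.10 and 0.23.

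Single mitochondrial genes differed more than these lists, without overlap between the groups. Ppif, the cyclophilin that regulates the permeability transition pore, had 47.0 and 37.6 RPKM in Y1CTL and 13.9 and 18.8 RPKM in Y1cKO, a log2 difference of -1.35 with a standard error of 0.23. Tomm5, a subunit of the import pore of the outer membrane, had 57.2 and 50 RPKM against 22.5 and 27.5 RPKM. Acot13, a mitochondrial acyl-CoA thioesterase, had 93.9 and 86.1 RPKM against 37.4 and 50.3 RPKM, and Cycs, the cytochrome c gene, had 42.7 and 61.7 RPKM against 17.5 and 27.7 RPKM. The 4 log2 differences lay between -1.35 and -1.04, each with an adjusted p of 0.401 from limma. These 4 were taken from the lower genes after their values were seen.

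Dio2 and Cycs are both known targets of cAMP signalling, and their RefSeq promoter windows (GRCm38.p6, from 250 bases before the start to 50 after it) both hold the full cAMP response element TGACGTCA, a palindrome that reads the same on both strands. It is shown in capitals in the windows of chr12:90738989-90739288 and chr6:50566520-50566819, both on the minus strand and written 5′ to 3′ along the gene. The pair was chosen after the values were seen. The element is in 1.79% of the 32851 promoter windows in the table and in 2.86% of those of genes tested. It is in 1 of the 20 beige genes with a window and in 5 of 64 nuclear respiratory genes. These list counts are by gene, with a match in any of its windows, while the percentages count single windows.
Dio2: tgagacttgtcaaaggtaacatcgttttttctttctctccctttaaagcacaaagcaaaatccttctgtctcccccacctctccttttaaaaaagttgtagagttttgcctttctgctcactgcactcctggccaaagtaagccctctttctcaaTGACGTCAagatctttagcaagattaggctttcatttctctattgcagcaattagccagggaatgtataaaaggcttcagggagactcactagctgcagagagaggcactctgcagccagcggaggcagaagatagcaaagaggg
Cycs: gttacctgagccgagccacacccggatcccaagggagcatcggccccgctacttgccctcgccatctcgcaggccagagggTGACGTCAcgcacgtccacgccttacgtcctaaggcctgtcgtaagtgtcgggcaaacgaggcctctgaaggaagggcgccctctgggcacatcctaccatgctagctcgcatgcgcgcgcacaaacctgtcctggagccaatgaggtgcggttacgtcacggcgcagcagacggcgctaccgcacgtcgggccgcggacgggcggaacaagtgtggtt

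Genes of adrenergic signaling stood on both sides. Adrb3, the β3-adrenergic receptor of adipocytes, had 103 and 68.0 RPKM in Y1CTL and 153 and 147 RPKM in Y1cKO, a log2 difference of 0.84 with a standard error of 0.25 (adjusted p = 0.402 from limma). The adenylyl cyclase Adcy5 had 12.5 and 8.77 RPKM against 31.7 and 24.4 RPKM, a log2 difference of 1.37, while Adcy3, another cyclase, had 25.7 and 14.4 RPKM against 7.99 and 12.5 RPKM, a log2 difference of -0.92. Over 22 genes of adrenergic and cAMP signaling the median was 0.16, near that of all genes.

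Among genes past the fold and unadjusted p with a mean of at least 10 RPKM, the most negative differences were those of Ang, Tmem38b, Fabp3 and Xkrx. Apart from Fabp3, both Y1cKO libraries were far below both Y1CTL libraries in these genes. Ang, the secreted ribonuclease angiogenin, had 48.3 and 145 RPKM in Y1CTL and 3.59 and 2.17 RPKM in Y1cKO, a log2 difference of -4.67 with a standard error of 0.53 (adjusted p = 0.401 from limma). Rnase4, a related ribonuclease that shares its promoter with Ang, stood the other way at 17.0 and 13.5 RPKM against 37.3 and 23.5 RPKM, so that reads of the shared 5′ region cannot be told apart between them. Tmem38b, an intracellular potassium channel, had 266 and 454 RPKM against 28.1 and 12.9 RPKM, and Xkrx, a membrane protein, had 35.8 and 74.3 RPKM against 7.69 and 5.90 RPKM. In all 3 of Ang, Tmem38b and Xkrx Y1CTL replicate 2 was the highest library.

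Lars2 was also highest in Y1CTL replicate 2, at a far higher level, 22813 and 34138 RPKM in Y1CTL and 9159 and 10127 RPKM in Y1cKO (log2 difference -1.53, adjusted p = 0.505 from limma). It is known to hold sequence like that of mitochondrial ribosomal RNA, so that its reads may not all be its own. In Ribo-seq, over the coding sequence, Lars2 had 15.9 to 17.8 RPKM in the 4 libraries. Tmem38b had 25.1, 14.9, 25.6 and 25.8 RPKM there, Xkrx 0.504 to 1.38 RPKM, and Ang 13, 24.3, 23.2 and 23.9 RPKM. None of the 4 had both Y1cKO libraries below both Y1CTL libraries in Ribo-seq. mt-Nd6, the only protein encoded on the light strand of the mitochondrial genome, had 4600 and 4821 RPKM in RNA-seq of Y1CTL and 1638 and 2505 RPKM in Y1cKO, while mt-Atp8 on the other strand had 16725, 21542, 16825 and 27381 RPKM.

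**Figure D4:**
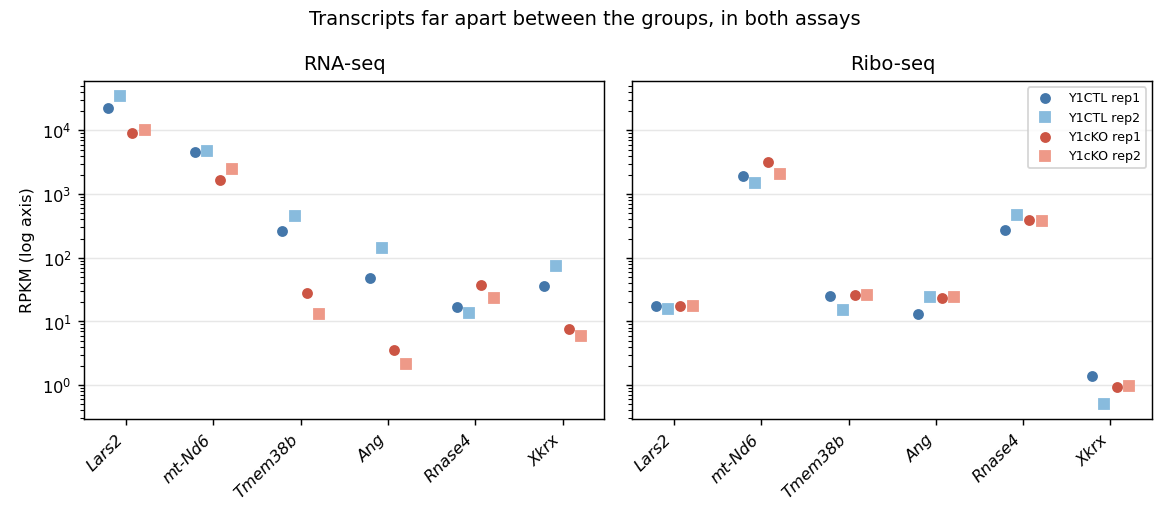
RPKM (vertical axis, logarithmic) in each library by RNA-seq (left) and Ribo-seq (right) for Lars2, mt-Nd6, Tmem38b, Ang, Rnase4 and Xkrx, with blue for Y1CTL, red for Y1cKO, circles for replicate 1 and squares for replicate 2. In RNA-seq both Y1cKO libraries lie below both Y1CTL libraries for all but Rnase4, and in Ribo-seq Lars2 lies between 15.9 and 17.8 RPKM in all 4.

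Genes of the white adipocyte were higher in Y1cKO than in Y1CTL, most of all against Y1CTL replicate 2. Of 20 adipocyte identity genes, 17 lay above 0, with a median of 0.53 beside 0.17. Both Y1cKO libraries were above both Y1CTL libraries in 13 (65.0%, beside 36.9% of all genes) and below them in 1 (5.0%, beside 10.7%). The markers that define adipocytes were among the most abundant transcripts. Adipoq, the adipokine adiponectin whose promoter drives Cre here, had 655 and 264 RPKM in Y1CTL and 908 and 846 RPKM in Y1cKO. Leptin, Lep, had 66.7 and 32.8 RPKM against 98.1 and 67.7 RPKM, Plin1, which coats the lipid droplet, had 448 and 360 RPKM against 565 and 597 RPKM, and hormone-sensitive lipase Lipe had 292 and 265 RPKM against 407 and 416 RPKM. The groups did not overlap for any of these. For Lep, Y1cKO replicate 2 exceeded Y1CTL replicate 1 by a log2 difference of only 0.02, less than the 0.125 of all genes in that pair. The glucose transporter Slc2a4 lay the other way at 137, 135, 128 and 119 RPKM. The list median was 0.37 and 0.27 for Y1cKO replicates 1 and 2 against Y1CTL replicate 1, and 0.73 and 0.74 against Y1CTL replicate 2, the library with lymphoid transcripts.

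Of 25 adipogenic transcription factors, 24 lay above 0, with a median of 0.49, and both Y1cKO libraries were above both Y1CTL libraries in 16 (64.0%, beside 36.9% of all genes) and below them in 0 (beside 10.7%). At an unadjusted p under 0.05, 8 were higher and 0 lower, beside 10% and 1.79% of all genes. Cebpa, which drives terminal adipocyte differentiation, had 105 and 84.0 RPKM in Y1CTL and 223 and 218 RPKM in Y1cKO, a log2 difference of 1.23 with a standard error of 0.21 (adjusted p = 0.401 from limma), and its replicates were close in both groups. Its early partner Cebpd had 0.607 and 0.968 RPKM against 2.84 and 2.83 RPKM. Pparg, the master regulator of adipogenesis, had 104 and 82.2 RPKM against 146 and 117 RPKM, and its heterodimer partner Rxra 31.6 and 24.1 RPKM against 48.5 and 45.7 RPKM. In Ribo-seq Cebpa had 238, 435, 316 and 290 RPKM, with overlapping groups.

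Insulin signaling genes lay above 0 in 19 of 22, beside 67.2% of all genes, with a median of 0.37. Irs2, the adaptor that passes the signal of the insulin receptor to PI3-kinase, had 2.72 and 3.70 RPKM in Y1CTL and 11.3 and 14.9 RPKM in Y1cKO, a log2 difference of 1.87 with a standard error of 0.25 (adjusted p = 0.401 from limma). It had 2.70 and 2.67 RPKM against 6.15 and 3.24 RPKM in Ribo-seq, so that the groups did not overlap in either assay. The receptor Insr had 25.5, 17.8, 28.7 and 30.4 RPKM. Of 20 adipokines the median was 0.44. Haptoglobin Hp had 218 and 217 RPKM against 484 and 397 RPKM, and chemerin Rarres2 had 61.2 and 39.4 RPKM against 95.7 and 108 RPKM. Lipolysis and lipid droplet genes (21) had a median of 0.28, with the droplet coat Plin4 at 230 and 140 RPKM against 360 and 364 RPKM. Fatty acid synthesis (25 genes), triglyceride synthesis (24) and cholesterol synthesis (23) had medians of 0.01, 0.05 and 0.01. These changed sign in 5, 4 and 5 of the 15 other settings.

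By number of members at an unadjusted p under 0.05, the list of extracellular matrix genes came first. By share, shorter lists such as that of glucocorticoid-responsive and metallothionein genes (8 of 13) stood higher. Of 44 collagen and matrix genes tested, 42 lay above 0, with a median of 0.77. Both Y1cKO libraries were above both Y1CTL libraries in 31 (70.5%, beside 36.9% of all genes) and below them in 0 (beside 10.7%). At an unadjusted p under 0.05, 21 were higher and 0 lower, beside 10% and 1.79% of all genes. Of the 21, 10 were higher by more than 1 on the log2 scale, beside 2.49% of all genes. Col18a1, a collagen of basement membranes, had 6.95 and 6.73 RPKM in Y1CTL and 20.1 and 15.5 RPKM in Y1cKO, a log2 difference of 1.31 with a standard error of 0.21 (adjusted p = 0.401 from limma). Mmp2, which cleaves matrix, had 19.3 and 12 RPKM against 65.2 and 33.9 RPKM, and Col5a3 had 47.6 and 35.2 RPKM against 83.0 and 92.9 RPKM. The fibrillar collagen Col1a1 had 67.2, 42.6, 371 and 65.8 RPKM, high in Y1cKO replicate 1 alone, the library with muscle transcripts. Col3a1, another, had 142, 88.7, 522 and 184 RPKM, highest in the same library but without overlap.

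Markers of the cells that make matrix lay on the same side. Of 21 progenitor and fibroblast genes 19 lay above 0, with a median of 0.64. Cd248, a stromal cell surface protein, had 6.98 and 7.35 RPKM in Y1CTL and 30.4 and 16.7 RPKM in Y1cKO, and Pdgfra, the receptor that marks adipocyte progenitors, 6.10 and 4.39 RPKM against 13.1 and 9.70 RPKM. Pi16, of interstitial progenitors, had 5.44 and 1.87 RPKM against 15.5 and 6.89 RPKM. All 20 endothelial genes lay above 0 (median 0.50, beside 67.2% of all genes above 0), as did 13 of 14 of smooth muscle and pericytes (median 0.42). The part of these cells in the matrix values was not tested. The medians of the matrix and the progenitor lists were 0.30 and 0.21 for Y1cKO replicate 2 against Y1CTL replicate 1, and 1.32 and 1.08 for Y1cKO replicate 1 against Y1CTL replicate 2. Those of the endothelial and smooth muscle lists were 0.06 and 0.14 in the first pair, beside 0.125 for all genes, and 0.82 and 0.71 in the second. In Ribo-seq the medians of the matrix, progenitor, endothelial and smooth muscle lists were -0.02, 0.11, -0.12 and -0.09.

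Peripheral nerve transcripts had the highest list median after that of skeletal muscle (1.65, from Y1cKO replicate 1). Of 11 Schwann cell and nerve genes tested, 9 lay above 0 (median 1.10), both Y1cKO libraries were above both Y1CTL libraries in 8 (72.7%, beside 36.9% of all genes), and the median was 0.66 to 1.53 in the 4 pairs of libraries. Mbp, a myelin protein, had 15.7 and 7.76 RPKM in Y1CTL and 32.3 and 25.5 RPKM in Y1cKO, and Prx, which the myelinating Schwann cell needs, had 3.13 and 0.999 RPKM against 7.07 and 6.01 RPKM. S100b, which beige adipocytes also express, lay the other way at 6.30, 17.9, 3.09 and 10.2 RPKM. In Ribo-seq Mbp had 21.6, 29.0, 25.2 and 25.4 RPKM. The haemoglobin genes Hba-a1 and Hba-a2, near-identical copies whose reads cannot be assigned with certainty, had 45.9, 21.0, 112 and 70.4 RPKM and 24.6, 22.2, 113 and 56.5 RPKM. Of 7 erythroid genes tested 6 lay above 0, with a median of 0.78. That median was 0.07 for Y1cKO replicate 2 against Y1CTL replicate 1, and -0.53 in Ribo-seq.

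Cell cycle genes lay on the lower side in all 4 pairs of libraries. Of 25 tested, 23 lay below 0, with a median of -0.68. Both Y1cKO libraries were below both Y1CTL libraries in 16 (64.0%, beside 10.7% of all genes) and above them in 0 (beside 36.9%). The pair medians were -0.57, -0.50, -1.02 and -0.83. At an unadjusted p under 0.05, 7 were lower and 0 higher, beside 1.79% and 10% of all genes. Mki67, the marker of cycling cells, had 11.3 and 6.13 RPKM in Y1CTL and 3.62 and 2.92 RPKM in Y1cKO, from 452, 306, 445 and 483 reads, a log2 difference of -1.24 with a standard error of 0.33 (adjusted p = 0.402 from limma). Top2a, which untangles replicated chromosomes, had 5.18 and 5.48 RPKM against 2.85 and 1.85 RPKM, and Ccna2, the S-phase cyclin, 5.88 and 2.99 RPKM against 1.66 and 1.60 RPKM. Pcna, the sliding clamp of DNA replication, had 22.1 and 23.5 RPKM against 16.4 and 16.1 RPKM. The list holds weakly expressed genes, with medians of 2.02, 1.70, 1.56 and 0.775 RPKM in the 4 libraries. In Ribo-seq its median was -0.15.

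Promoters of cell cycle genes often hold CCAAT boxes, and 20 of the 22 list members with a RefSeq promoter window had the letters CCAAT on either strand, beside 37.4% of the 32851 windows and 37.5% of those of genes tested. The cell cycle homology letters TTTGAA, read on either strand, were in 12 of the 22, beside 17.9% and 12.4%. List members were counted by gene, with a match in any of a gene's windows, while the shares beside them count single windows. The windows of Cdc20, which activates the anaphase-promoting complex, at chr4:118437294-118437593, of the mitotic cyclin Ccnb2 at chr9:70421505-70421804 and of Top2a at chr11:99024140-99024439 are shown (GRCm38.p6, minus strand, 5′ to 3′ along the gene), with CCAAT or its reverse complement in capitals. They hold 2, 3 and 6 matches. Cdc20 had 2.68 and 2.81 RPKM in Y1CTL and 1.64 and 0.883 RPKM in Y1cKO, and Ccnb2 1.16 and 1.97 RPKM against 1.12 and 0.437 RPKM.
Cdc20: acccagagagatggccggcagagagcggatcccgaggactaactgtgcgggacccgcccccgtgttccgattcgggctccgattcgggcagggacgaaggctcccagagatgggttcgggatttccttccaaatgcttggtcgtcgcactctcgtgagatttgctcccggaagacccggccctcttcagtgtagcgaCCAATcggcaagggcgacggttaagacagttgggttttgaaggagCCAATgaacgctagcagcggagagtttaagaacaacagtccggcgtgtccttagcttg
Ccnb2: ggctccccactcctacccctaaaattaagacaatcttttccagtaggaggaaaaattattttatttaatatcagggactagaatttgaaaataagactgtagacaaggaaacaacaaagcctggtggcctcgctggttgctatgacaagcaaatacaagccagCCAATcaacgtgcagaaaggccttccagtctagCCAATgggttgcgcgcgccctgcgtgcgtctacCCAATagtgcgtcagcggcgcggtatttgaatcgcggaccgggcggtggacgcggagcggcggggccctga
Top2a: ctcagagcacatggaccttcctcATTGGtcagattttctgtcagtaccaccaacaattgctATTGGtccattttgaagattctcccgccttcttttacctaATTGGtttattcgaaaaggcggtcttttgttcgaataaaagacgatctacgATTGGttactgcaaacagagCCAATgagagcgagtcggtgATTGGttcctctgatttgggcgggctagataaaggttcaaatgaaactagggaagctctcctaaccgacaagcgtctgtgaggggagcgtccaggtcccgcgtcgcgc

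Replication-dependent histones lay closer to 0, with 14 of 25 below 0, a median of -0.11 and pair medians of -0.09, -0.14, -0.15 and -0.28. Both Y1cKO libraries were below both Y1CTL libraries in 8 (32.0%, beside 10.7% of all genes) and above them in 5 (20%, beside 36.9%). These mRNAs lack a poly(A) tail for the most part, and the libraries were made from polyadenylated RNA. The linker histone H1f3 had 4.83 and 3.85 RPKM in Y1CTL and 1.38 and 1.26 RPKM in Y1cKO, and H3c13 23.8 and 27.2 RPKM against 12.1 and 15.5 RPKM. H2bc15, which is not on the list, had 27.8 and 27.0 RPKM against 12.3 and 5.75 RPKM. Histone copies are near identical, and reads may be split between them.

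Glucocorticoid-responsive and metallothionein genes lay above 0 in 11 of 13, with a median of 0.78 and pair medians of 0.40 to 0.87. At an unadjusted p under 0.05, 8 of the 13 were higher and 0 lower, beside 10% and 1.79% of all genes. Zbtb16, a zinc finger factor that glucocorticoids induce, had 7.90 and 9.02 RPKM in Y1CTL and 16.8 and 18.4 RPKM in Y1cKO, a log2 difference of 1.02 with a standard error of 0.19 (adjusted p = 0.401 from limma). Errfi1, a feedback inhibitor of the EGF receptor, had 5.15 and 5.36 RPKM against 11.2 and 9.70 RPKM, and Tsc22d3, the glucocorticoid-induced leucine zipper, 18.2 and 10.6 RPKM against 26.6 and 22.2 RPKM. Fkbp5, a classical target of the receptor, had 5.50, 5.12, 9.79 and 5.29 RPKM. Mt2 had 3.26 and 3.12 RPKM against 18.6 and 7.69 RPKM, from 5 and 6 reads in Y1CTL, while its neighbour Mt1 had 195 and 118 RPKM against 126 and 111 RPKM.

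Genes of BMP signaling, which acts in brown and beige fat formation, lay on the higher side. All 12 ligands and antagonists tested of 22 listed lay above 0 (beside 67.2% of all genes), with a median of 0.83, and both Y1cKO libraries were above both Y1CTL libraries in 10 (83.3%, beside 36.9%). Bmper, an extracellular modulator of BMP, had 2.80 and 1.97 RPKM in Y1CTL and 7.41 and 5.59 RPKM in Y1cKO. The antagonist Chrd had 1.07 and 0.458 RPKM against 2.82 and 2.02 RPKM, and the activin-binding Fst 4.91 and 1.96 RPKM against 9.51 and 6.61 RPKM. The list median was 0.24 for Y1cKO replicate 2 against Y1CTL replicate 1. Bmp8b, a ligand of thermogenic fat, did not reach the mean of 0.5 RPKM and was not tested. It had 0.172, 0.685, 0 and 0.207 RPKM, from 2, 10, 0 and 10 reads. The groups overlapped, and so few reads leave the difference of Bmp8b uncertain. In Ribo-seq it had 6.48 RPKM in Y1CTL replicate 1 and 0.681, 0.439 and 0.277 RPKM in the other 3. Receptors, SMADs and Id targets (20 genes) had a median of 0.33, with Id3 at 14.4, 15.1, 41.3 and 21.4 RPKM and Id2 at 7.38, 6.10, 5.30 and 3.18 RPKM.

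Of the m6A machinery, the 10 reader genes tested had a median of 0.01, and all 12 writers and erasers lay above 0 (beside 67.2% of all genes) with a median of 0.33. The methyltransferase subunits Mettl3 and Mettl14 had 4.37, 2.59, 4.00 and 4.87 RPKM and 2.67, 4.78, 5.11 and 5.09 RPKM. The demethylase Fto had 21.7 and 20.5 RPKM in Y1CTL and 29.2 and 28.1 RPKM in Y1cKO, and Alkbh5 25.3 and 21.9 RPKM against 27.5 and 28.5 RPKM. With the libraries scaled to the same median the writers and erasers had a median of 0.17 and the readers one of -0.14.

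Single genes with large positive differences at a mean of at least 10 RPKM were of several kinds. Nnat, a small membrane protein of the endoplasmic reticulum expressed from the paternal allele, had 6.62 and 1.32 RPKM in Y1CTL and 19.3 and 31.2 RPKM in Y1cKO, from 12, 3, 108 and 235 reads, a log2 difference of 2.80 with a standard error of 0.64. In Ribo-seq it had 69.0 and 93.0 RPKM against 312 and 164 RPKM. Bri3, a small lysosomal membrane protein, had 5.03 and 6.96 RPKM against 26.7 and 22.6 RPKM, and Gstt1, a glutathione transferase, 8.04 and 8.94 RPKM against 26.2 and 25.8 RPKM. Igfbp6, which binds IGF2, had 6.59 and 8.15 RPKM against 30.6 and 21.9 RPKM, and Gsn, the actin-severing protein gelsolin, had 1131 and 739 RPKM against 2425 and 2805 RPKM. The 5 adjusted p-values were 0.401 to 0.402 from limma, and the groups did not overlap.

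Part of the largest differences had few reads or rested on a library with foreign transcripts. Tnnt3, the fast muscle troponin T, had the largest positive log2 difference past the fold and unadjusted p, 3.59, with 0, 0, 24.4 and 0.959 RPKM, so that it is high in the library with muscle transcripts. Snurf had 0 and 0 RPKM against 3.41 and 2.54 RPKM, but from 9 and 9 reads on a short transcript, and taken over both libraries of a group it was at least 1.87-fold higher against the limit of 3 reads. Among the lower genes, Cd8b1, the T cell co-receptor, had 0.852, 14.8, 0.166 and 0.164 RPKM, and Ly6d, a marker of B cell precursors and epithelium, 2.04, 20.6, 0.550 and 0.409 RPKM. Sit1, a lymphocyte adaptor, had 0.823 and 2.46 RPKM and no read in Y1cKO, at least 20.3-fold lower by the same limit. Y1CTL replicate 2 was at 3 or more times Y1CTL replicate 1 in 13 of the 107 genes lower past the fold and unadjusted p. The same held for 567 of the 12435 genes tested. Y1cKO replicate 1 was at 3 or more times Y1cKO replicate 2 in 3 of the 310 higher genes and 54 of those tested. These ratios are on the RPKM + 0.5 scale, and a filter on p passes fewer genes whose replicates lie far apart.

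The other lists are given by their medians, beside the 0.17 of all genes. Medians were 0.29 for the proteasome (37 genes), 0.35 for the integrated stress and unfolded protein responses (23), 0.34 for NRF2 and glutathione (20), 0.21 for macrophages (23), 0.11 for the interferon response (26) and 0.14 for translation factors (45). Those of macrophages, the interferon response and translation factors changed sign in 1, 5 and 2 of the 15 other settings. Among the medians that follow, heat shock changed sign in 4, phosphodiesterases in 7 and immediate early genes in 5. Mitochondrial ribosomal proteins and glycolysis did so in 2 each, and cytosolic ribosomal proteins in 3. Further medians were 0.38 for hypoxia and angiogenesis (16), 0.31 for creatine and calcium cycling (9), 0.24 for the circadian clock (18), 0.23 for lipoprotein lipase and fatty acid uptake (21), 0.11 for heat shock (16), 0.07 for phosphodiesterases (15), -0.01 for immediate early genes (26), -0.02 for mitochondrial ribosomal proteins (78) and -0.22 for glycolysis (20), of which 13 lay below 0. Of the proteasome genes 32 lay above 0 and 23 had both Y1cKO libraries above both Y1CTL libraries (62.2%, beside 36.9% of all genes), and of the NRF2 and glutathione genes 18 and 11 did (55.0%). Cytosolic ribosomal proteins (79 genes) had a median of -0.02. They lay above Y1CTL replicate 1 in both Y1cKO libraries (0.36 and 0.19) and below Y1CTL replicate 2 in both (-0.27 and -0.43). Antigen presentation (15 genes) had pair medians of 0.52 and 0.07 against Y1CTL replicate 1 and of -1.56 and -1.79 against Y1CTL replicate 2, as the T cell, B cell and lymph node lists did.

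**Figure D5:**
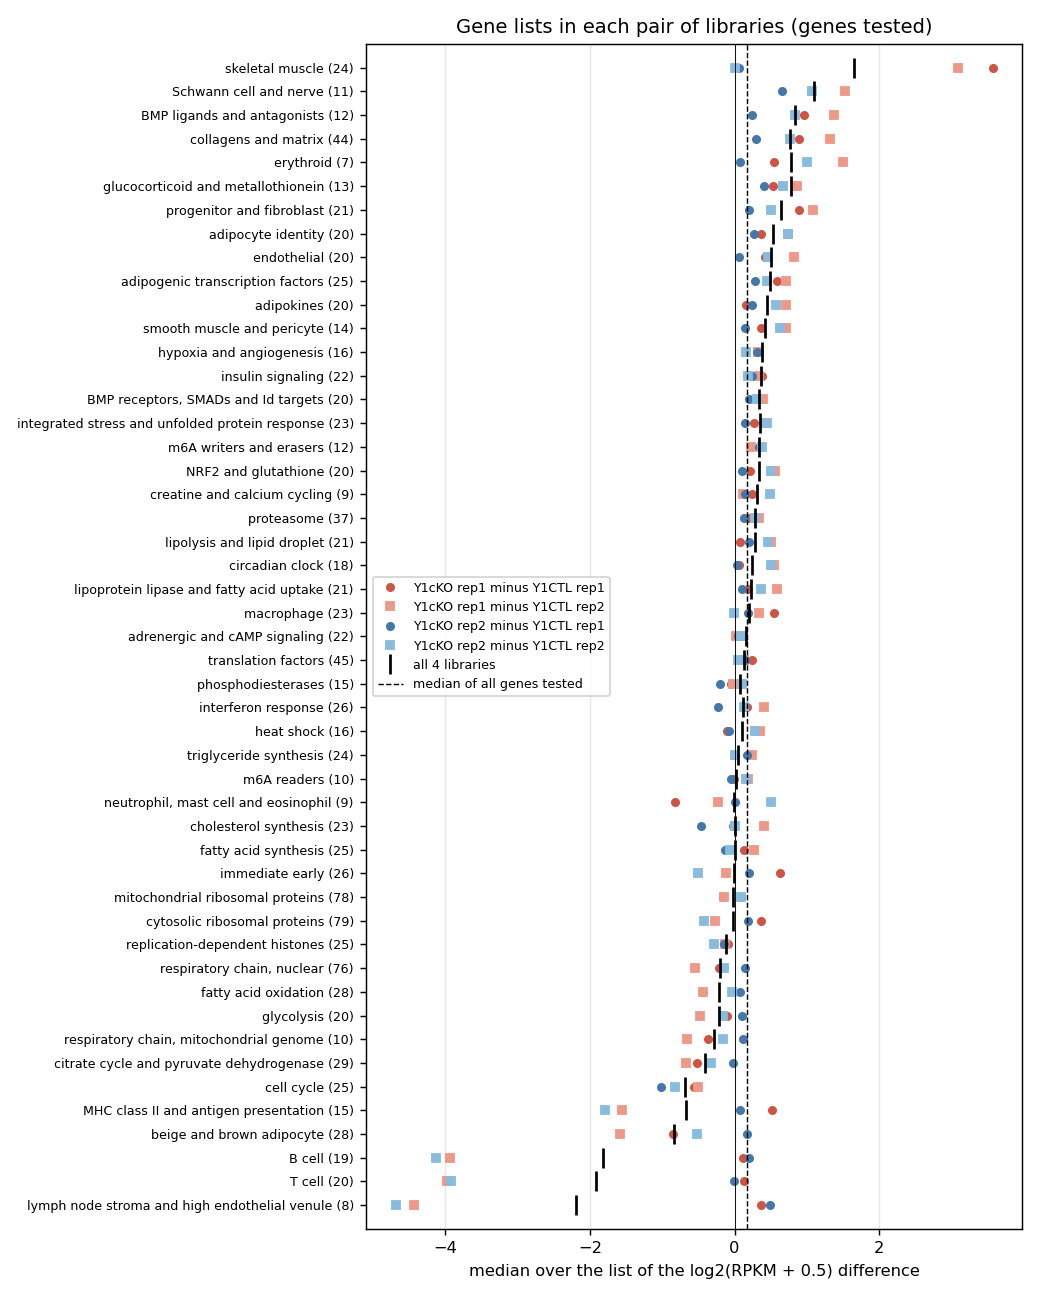
Median log2(RPKM + 0.5) difference (horizontal axis) of each gene list with at least 7 genes tested, 1 row per list with that number in brackets, ordered by the median after scaling to the same library median. Points are the 4 pairs of 1 Y1cKO with 1 Y1CTL library, black bars all 4 libraries and the dashed line the 0.17 of all genes. The lymphoid and muscle lists split by library, and the beige list reaches 0.17 in 1 pair. The cell cycle, citrate cycle and replication-dependent histone lists lie below 0 in all 4 pairs. The nerve list lies above 0.17 in all 4, as do others such as the adipocyte identity and matrix lists.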

How the data were processed

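RNA-seq and Ribo-seq were made from iWAT, 2 libraries per genotype and assay. The labels state that each lysate was divided between the assays, but lymphoid and muscle transcripts differed between libraries of the same name, and their common origin was not tested. Per the labels and the study's methods, polyadenylated RNA was fragmented, adaptors were trimmed, low-quality and low-complexity bases were masked, and reads were aligned with HISAT2 2.2.1 to mm8. DESeq2 is named in the submitters' processing notes with no role. No counter, annotation or strand setting is given in the sources read here. The deposited RPKM values were computed by the authors over the transcript length. Multiplied back by length and depth, 100% of them came out as whole reads within 0.01 read. The column headers of the 2 Y1cKO RNA-seq tables have the replicate numbers exchanged, and the sample labels were followed.

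Genes whose mean over the 4 RNA-seq libraries reached 0.5 RPKM were fitted on log2(RPKM + 0.5) with limma 3.58.1 (intensity trend, R 4.3.3), with Benjamini-Hochberg adjustment over all 12435. The fit was also run on simulated counts with known fold changes. These had the same spread in all libraries and no foreign transcripts, so they do not show how it behaves on these libraries. Summaries and figures used Python 3.11.15, numpy 2.4.6, pandas 2.3.3, scipy 1.17.1 and matplotlib 3.10.9. Of 16674 gene IDs 16665 matched a current symbol, and 24 symbols that had become dates were restored from the ID. The 51 gene lists, the members and the tests were chosen with earlier results of these data known, so lists were described by counts and medians and not tested. Genes were named from those of the study, those with the largest differences past the fold and unadjusted p whose groups did not overlap (15 each way, and 10 each way at a mean of at least 10 RPKM), up to 4 genes of every list by smallest p, the 10 most abundant genes and the genes that stood apart in 1 library. Others, such as markers, a neighbour or a partner of a named gene, were added after their values were seen. Ribo-seq values are given beside RNA-seq without a test, and their normalization was separate. Alternatives were other pseudocounts, filters and scalings, limma without a trend, voom on the recovered reads, the replicate number as a block, and leaving out libraries.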

Additional observations from a re-analysis of the deposited data

How the results depend on the processing

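Leaving out 1 library moved the counts most. The number of genes past an adjusted p of 0.05 ranged from 0 to 665, the highest when Y1CTL replicate 1 was left out (52 when Y1CTL replicate 2 was), the higher genes past fold and unadjusted p from 119 (without Y1cKO replicate 1) to 707, and the lower genes from 58 to 725 (without Y1CTL replicate 1). In these fits the lone library is assumed to vary like the other group. The counts of groups that do not overlap were not recomputed without a library. With the libraries scaled to the same median the counts were 178 higher and 162 lower, 2717 above and 2480 below without overlap, and the median difference of all genes was 0.0131. With Lars2 and the mitochondrial genome genes left out of the total, chosen after seeing the data, they were 186, 168, 2726 and 2652, and the median was -0.00355. A mean of at least 5 RPKM gave 147, 28, 3052 and 659, voom gave 162 lower genes, no filter a median of 0.116, and the pair without Y1CTL replicate 2 and Y1cKO replicate 1, also chosen after seeing the data, a median of 0.12, the lowest of 0.12 to 0.209 when libraries were left out. The cause of these moves was not tested, apart from the fewer genes that a filter leaves. The replicate numbers did not pair the libraries (correlation of replicate deviations across genes -0.0213), and the fit with the replicate block gave 0 genes past the adjusted p, 1660 at an unadjusted p under 0.05, 320 higher and 144 lower. The remaining settings kept the counts within 1.5 times. Among named genes, the difference changed sign for Ebf1, Ppargc1a, Prdm16, Esrra, mt-Atp8, Col1a1, S100b and Fkbp5. Scaled to the same median, Ebf1 was at -0.103, Ppargc1a at -0.0199 and Prdm16 at -0.0581. With Lars2 and the mitochondrial genes out of the total, Ebf1 was at -0.12, Ppargc1a at -0.0372, Prdm16 at -0.076, Esrra at -0.00691 and mt-Atp8 at -0.0141. Over the fits that leave out libraries, Ppargc1a ranged from -0.00662 to 0.415, Prdm16 from -0.0777 to 0.31, Esrra from -0.02 to 0.436, mt-Atp8 from -0.174 to 0.711, Col1a1 from -0.0297 to 2.78, S100b from -1.64 to 0.656 and Fkbp5 from -0.0527 to 0.825. Depth limits genes under about 1 RPKM in Y1CTL most, where 3 reads stand for 0.604 to 0.758 RPKM per kilobase.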

Other observations

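A few genes stood apart in a library without lymphoid or muscle transcripts. Lsm8, of the U6 snRNA-binding ring, had 16.6 RPKM in Y1CTL replicate 1 and 4.01, 2.44 and 4.48 RPKM in Y1CTL replicate 2 and Y1cKO replicates 1 and 2. In the same order Stmn1, a microtubule-destabilizing protein of dividing cells, had 20.3, 8.74, 8.58 and 7.58 RPKM. Y1cKO replicate 2 was the highest library for Peg3, an imprinted zinc finger gene, at 8.77, 3.70, 7.97 and 17.4 RPKM, and for Nrip1, a corepressor of nuclear receptors in adipocytes, at 27.4, 14.4, 29.4 and 50.8 RPKM. In Ribo-seq Lsm8 had 53.9 to 59.8 RPKM and Peg3 2.94 to 4.42 RPKM.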
